A study of Mus musculus with 16 samples.

Results

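The cytosolic ribosome of the mouse embryonic stem cell (ESC) is described here through the genes for its proteins. Members were taken by name alone: every array probe whose gene symbol is Rpl or Rps followed by a digit, or Rpsa, Rplp0, Rplp1 or Rplp2, leaving out the Rps6k kinases and pseudogenes named as such. This gave 65 of the 19057 genes named on the array, read by 96 of its 45281 probes. They comprise 30 proteins of the large (60S) subunit, 23 of the small (40S) subunit, the 3 stalk proteins, 8 paralogs or look-alikes of canonical proteins (Rpl3l, Rpl7l1, Rpl22l1, Rpl36al, Rpl39l, Rps4l, Rps27l and Rps23rg1) and Rps19bp1, which binds Rps19 and carries the name without being part of the ribosome.

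Each subunit holds one copy of most of its proteins, so the mRNAs are made in roughly matched amounts and are among the most abundant of any growing cell. Most start with a C followed by a run of pyrimidines, the 5′ terminal oligopyrimidine (TOP) tract, through which mTOR signalling and the RNA-binding protein Larp1 control their translation as one group. Control of the family therefore acts largely on translation, which an array of total RNA does not read. ESCs proliferate rapidly and need a steady supply of ribosomes.

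Total RNA of 129/Sv ESCs was hybridized to Illumina bead arrays (Mouse WG-6 v2) for 3 genotypes: 6 arrays of wild-type (Prdm4+/+) cells, 4 of Prdm4 null (Prdm4∆ZF/∆ZF) cells and 6 of Prdm4-EGFP cells. Prdm4 is a transcription regulator with zinc fingers, which recognize DNA. By the study's account, the null cells are clones with a targeted deletion on both alleles. It takes the proximal zinc fingers and the end of the PR/SET domain before them. The Prdm4-EGFP cells are stable transfectants in which a pCAGGS (chicken beta-actin) promoter drives the full-length protein fused to a green fluorescent protein. All were grown with LIF on gelatin without feeder cells. The methods call the arrays of a group biological replicates, but nothing in the labels tells whether they hold separately derived clones. The p-values therefore measure the spread between arrays, which may not be the spread between clones.

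Levels are given as log2 of the signal after background correction and quantile normalization, which gives every array the same distribution of values. A probe was tested when at least 4 of the 16 arrays detected it above the negative control beads, at a detection p-value under 0.01, and the brightest tested probe stands for its gene. A gene is said to have risen or fallen, or to be called, when limma gave an adjusted p under 0.05 (two-sided, Benjamini-Hochberg over all tested probes). Each array detected 13894 to 14905 probes. The null arrays stood apart from all others on the first principal component (52.2% of the variance), and wild-type arrays 1, 5 and 6 stood apart from wild-type arrays 2, 3 and 4 on the second (13.1%). Of the 2 Prdm4 probes, one was detected on all wild-type and no null arrays (7.06 to 7.49 against 4.62 to 4.74) and the other fell by 0.63 (SE 0.07, adjusted p = 6.04e-07) in null, and neither was called in Prdm4-EGFP cells (log2 differences of -0.01 and -0.05), so their values do not show the transgene. All 10 ESC markers examined were detected on every array, and 7 of 8 feeder fibroblast markers on none. Some markers differed in null cells: 4 of the 10 ESC markers rose and Nanog fell by 0.85 (SE 0.09), the fibroblast marker Thy1, detected on every array, fell by 1.79 (SE 0.11), and of 3 tested primitive endoderm markers Gata6 (1.35, SE 0.32) and Amn (0.96, SE 0.24) rose and Sox7 fell (-0.42, SE 0.15, but not called with median scaling). Gata6 was detected on 1 of 6 wild-type, 4 of 4 null and 4 of 6 Prdm4-EGFP arrays. The ESC markers depend on the scaling too. Pou5f1 (Oct4) differed by -0.17 and was not called. It was called lower with median scaling (-0.23), with scaling on non-ribosomal probes (-0.32) and in the deposited normalized values (-0.38). Dppa5a (-0.01 here) was called lower with scaling on non-ribosomal probes (-0.22) and in the deposited values (-0.29). In the deposited values Sox2 and Utf1, among those that rose, were not called. The part of such differences in the values below was not tested.

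The start sites of the members that were called below are shown with their pyrimidine tracts, because the tract is the feature by which the family is known. RefSeq start-site windows (build GRCm38.p6, 250 bases before and 50 after the first base) were given for 54 of the 65 genes, as 64 windows. Rpl30 and Rpl21, also called, had no window, and only the first window of Rpl3l is shown. Each run holds 15 bases on either side of the boundary, so the annotated first base of the transcript is base 16, and capitals mark the bases of a tract of C followed by at least 6 more pyrimidines on the coding strand, which may run beyond the bases shown.
Rpl31, chr1:39367836-39367865, plus strand: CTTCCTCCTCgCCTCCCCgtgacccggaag
Rpl4, chr9:64173372-64173401, plus strand: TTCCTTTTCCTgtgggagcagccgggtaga
Rpl13a, chr7:45128731-45128760, minus strand: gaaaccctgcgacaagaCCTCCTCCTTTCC
Rps15a, chr7:118116133-118116162, minus strand: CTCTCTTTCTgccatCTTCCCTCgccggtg
Rps15, chr10:80292416-80292445, plus strand: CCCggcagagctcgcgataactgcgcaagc
Rplp0, chr5:115559452-115559481, plus strand: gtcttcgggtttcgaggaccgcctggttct
Rpl3l, chr17:24727811-24727840, plus strand: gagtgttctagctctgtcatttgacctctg

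Such a tract lay within 25 bases of the annotated start, on either side, in 32 of the 64 member windows, against 22.8% of all 32851 windows. Of the 7 members shown, 5 have one, while Rplp0 and Rpl3l, the muscle paralog, do not. A run begins at the annotated first base in Rps15a and spans it in Rpl31. The capitals end before that base in Rpl4 and Rps15 and begin after it in Rpl13a. Annotated starts can lie some bases from the base at which transcription begins. A missing tract therefore says only that these letters were not there, and a marked run is not shown to start the mRNA. GAAAC is the core of the sequence that the study found Prdm4 to bind. The paper proposes that GAAAC alone is not enough for binding, and it found a longer motif in nearly all of its binding regions. Those regions were not set against the members here, so the letters do not mark targets. These letters stood on either strand in 33 of the 64 member windows (51.6%), against 45.0% of all windows. The longer form CTNGAAAC was in 4 member windows (6.25%), against 3.83% of all.

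In wild-type, null and Prdm4-EGFP cells alike, the ribosomal protein mRNAs gave some of the brightest signals on the array. Of the 65 genes, 55 were detected on all 16 arrays, 4 on some and 6 on none, and 57 were tested (27 large subunit, 20 small subunit, 3 stalk, 6 paralogs and Rps19bp1). The 8 that were not tested (Rpl6, Rpl14, Rpl17, Rps20, Rps23, Rpsa, Rpl39l and Rps23rg1) had scanner signals of 47.6 to 97.1, against array medians of 61.0 to 76.0. Most of these encode core proteins that every dividing cell needs, so a dim probe is not read here as a lack of the mRNA. The 57 tested genes had mean levels of 5.96 to 14.78, with a median of 13.82, and 49 of them were in the brightest 10% of tested probes. Rplp1, an acidic stalk protein, was the brightest of all 45281 probes on 15 of the 16 arrays and second on the other. Quantile normalization then assigns it the same value, 14.79, on those arrays, so its log2 fold of 0.00 in null cells is set by the method. Many of these genes have processed pseudogenes of nearly the same sequence, and since no probe sequences were used here, cross-reaction with them was not tested.

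The comparison of null with wild-type ESCs asks what differs in cells that carry the Prdm4 deletion. Few ribosomal protein genes were called: 2 of 57 rose, Rpl30 and Rps15, against 22.9% of all 8707 tested genes, and 5 fell, Rpl3l, Rps15a, Rpl21, Rpl4 and Rpl31, against 21.2%. The interquartile range of the members' log2 folds was -0.04 to 0.05, against -0.20 to 0.21 for all genes. The median fold of the members was 0.01 and that of all tested genes 0.02. Both the count and the median depend on the scaling. In the deposited normalized values 25 of the 57 (43.9%) were lower, against 27.1% of all tested genes, none was higher, and the median lay below 0, as given further below. In the plot of fold against level, the 38 members above a level of 13 form a narrow band at the bright end, while the folds farthest from 0 belong to dimmer members such as Rpl3l, Rpl22l1 and Rps15a.

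**Figure D1:**
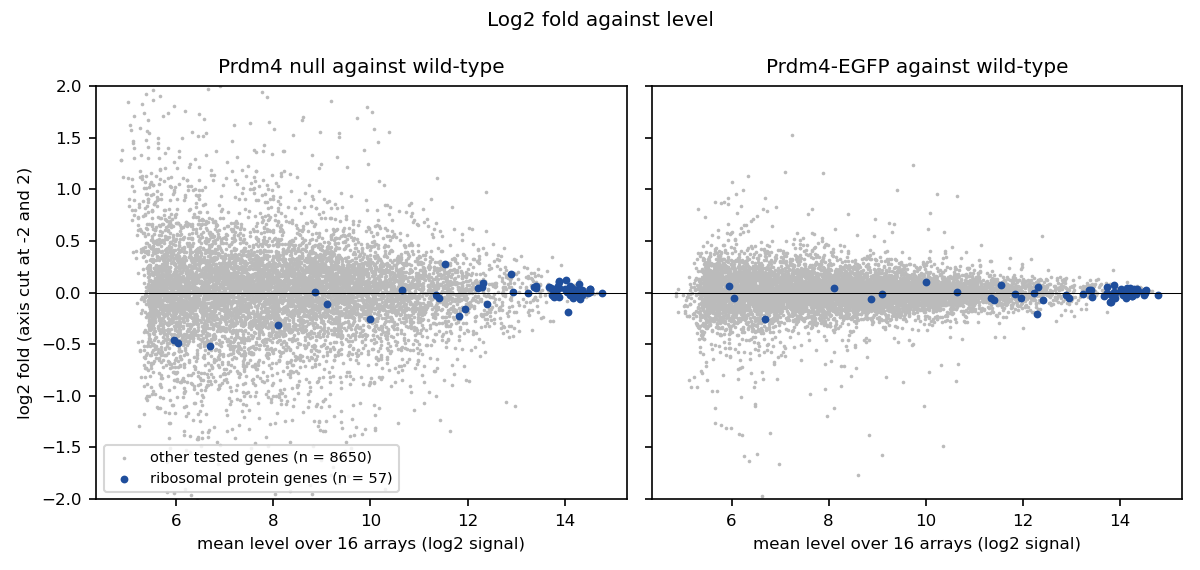
Log2 fold of null (left) and Prdm4-EGFP (right) against wild-type ESCs for each tested gene, against its mean level over all 16 arrays in log2 signal. Of the 57 ribosomal protein genes (blue), the 38 above a level of 13 lie within 0.19 of 0 on the left, and the dimmer ones spread from -0.51 to 0.28, among 8650 other tested genes (grey).

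Spread on the array narrows with level, so the bright members were also set beside other bright genes. Above a mean level of 13 there were 38 members and 95 other genes. None of these members rose and 1 fell (Rpl31), while 12.6% of the other genes rose and 12.6% fell. The median size of the log2 fold was 0.04 for these members and 0.08 for the other genes. The members in that band were still brighter (median level 14.07 against 13.45), and their SD between arrays of a group was 0.06 against 0.07, so the 2 sets are not matched and the part of level in the difference was not tested.

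**Figure D2:**
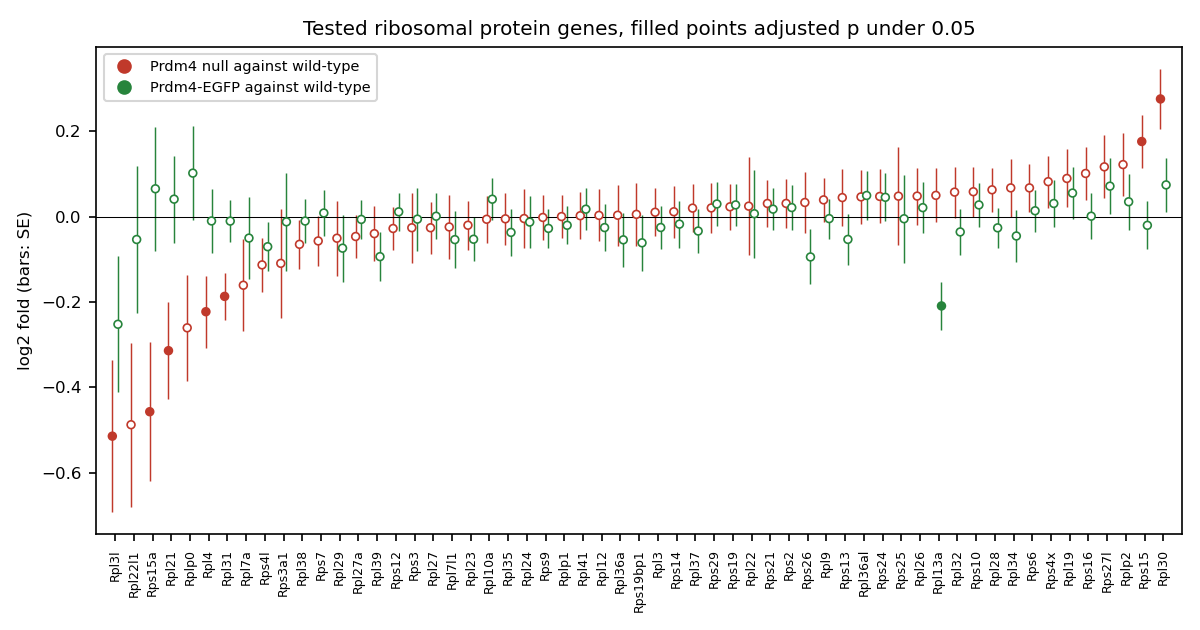
Log2 fold of each of the 57 tested ribosomal protein genes in null (red) and Prdm4-EGFP (green) ESCs against wild-type, with the SE from the fit as bars and called genes as filled points. Called folds in null run from -0.51 (Rpl3l) to 0.28 (Rpl30), and the filled green point is Rpl13a.

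Rpl31, a protein at the exit of the large subunit's nascent peptide tunnel, fell on all 3 of its probes. On its brightest probe the 4 null arrays stood at 13.89, 13.92, 13.90 and 13.99, and the wild-type arrays at 14.03 to 14.17 (median 14.13). The null arrays lie below every wild-type array, and the change was -0.19 on the log2 scale (SE 0.05, adjusted p = 0.0107). The middle probe fell from 12.11 to 12.32 in wild-type to 11.55, 11.61, 11.71 and 11.74 in null, a change of -0.58 (SE 0.06, adjusted p = 5.45e-07). The dimmest fell by 0.80 (SE 0.07, adjusted p = 5.87e-08), from 11.60 to 11.75 in wild-type to 10.79, 10.81, 10.96 and 10.95 in null. On all 3 probes the null arrays lie below every wild-type array. The Prdm4-EGFP arrays overlapped the wild-type arrays on each probe (log2 differences of -0.01, -0.05 and -0.07, none called). Rpl31 is the only tested member on chromosome 1, where 289 of 426 tested genes fell and 22 rose in null cells, with a median of -0.40. Whether its fall is part of that shift was not tested.

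Rpl30, a small protein at the interface of the subunits, rose in null cells. Its 4 null arrays stood at 11.74, 11.74, 11.72 and 11.69, and the wild-type arrays at 11.27 to 11.63 (median 11.46). The groups do not overlap, and the change was 0.28 (SE 0.07, adjusted p = 0.00405). Its other probe differed by 0.17 (SE 0.08) and was not called. Rps15, a protein of the small subunit head, rose by 0.18 (SE 0.06, adjusted p = 0.0325), from 12.66 to 12.98 in wild-type (median 12.89) to 13.03, 12.99, 13.06 and 13.05 in null. The groups do not overlap, but the nearest arrays lie close together. Both rises depend on the scaling: with arrays scaled on the median of non-ribosomal probes the changes were 0.18 and 0.06, neither called, and in the deposited normalized values 0.12 and -0.01. Without wild-type arrays 1, 5 and 6, Rps15 was no longer called (0.18, adjusted p = 0.0829).

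Rpl21, Rpl4 and Rps15a fell in null cells, with wild-type arrays that lay far apart. The 3 Rpl21 probes were dim for this family, with scanner signals of 172 to 389, while the members' median level was 13.82. Rps15a was dimmer still. How well such probes read the mRNA of a core protein was not tested. For Rpl21, a large subunit protein, the null arrays stood at 7.78, 7.83, 7.91 and 7.90 and the wild-type arrays at 7.86 to 8.44 (median 8.19). Wild-type arrays 2, 3 and 4 were at 8.44, 8.39 and 8.40 and arrays 1, 5 and 6 at 7.86, 7.98 and 7.94, so the null arrays overlap the lowest wild-type array. The change was -0.31 (SE 0.11, adjusted p = 0.0344), and the other 2 Rpl21 probes gave -0.35 each (adjusted p = 0.0274 and 0.0318). Rpl4, which lines the peptide tunnel, had null arrays at 11.56, 11.67, 11.67 and 11.75, against 11.64 to 12.07 in wild-type, where arrays 1, 5 and 6 were again the lowest. The change was -0.22 (SE 0.08, adjusted p = 0.0417).

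Rps15a, a protein of the small subunit body, was dim on its only tested probe, with detection on all wild-type but 2 of 4 null arrays. Its null arrays stood at 5.22, 6.00, 5.49 and 5.66, and the wild-type arrays at 5.73 to 6.66, with arrays 1, 5 and 6 the lowest at 5.74, 5.73 and 5.82. The groups overlap, and the change was -0.46 (SE 0.16, adjusted p = 0.0319). Without wild-type arrays 1, 5 and 6 the changes were larger, at -0.56 for Rpl21, -0.37 for Rpl4 and -0.74 for Rps15a, all called. These arrays were set aside after seeing the data and were the lowest wild-type arrays for each gene. Leaving them out therefore makes each fall larger by construction and adds no support. With single arrays left out in turn, the calls of Rpl30 and Rpl31 held for each of the 10 arrays, while that of Rpl21 was lost for 7, Rpl4 for 6, Rps15 and Rps15a for 5 each and Rpl3l for 4. The falls depend on the scaling as well. With arrays scaled on the median of all probes, 3 members were lower (5.26%), against 15.6% of all tested genes. Of these 3, 2 were in the brightest 10% of tested probes, so not all falls of the dimmer members held.

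Rplp0 is the scaffold of the stalk that recruits elongation factors. Null stood at 9.81, 9.89, 9.60 and 9.75 and wild-type at 9.69 to 10.44, with arrays 1, 5 and 6 at 9.91, 9.69 and 9.71. The difference of -0.26 (SE 0.12, adjusted p = 0.102) was not called. It was called without those 3 arrays (-0.51, adjusted p = 0.00056), but they were the lowest wild-type arrays and were set aside after seeing the data. Of the other stalk proteins, Rplp2 differed by 0.12 (SE 0.07, adjusted p = 0.198).

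**Figure D3:**
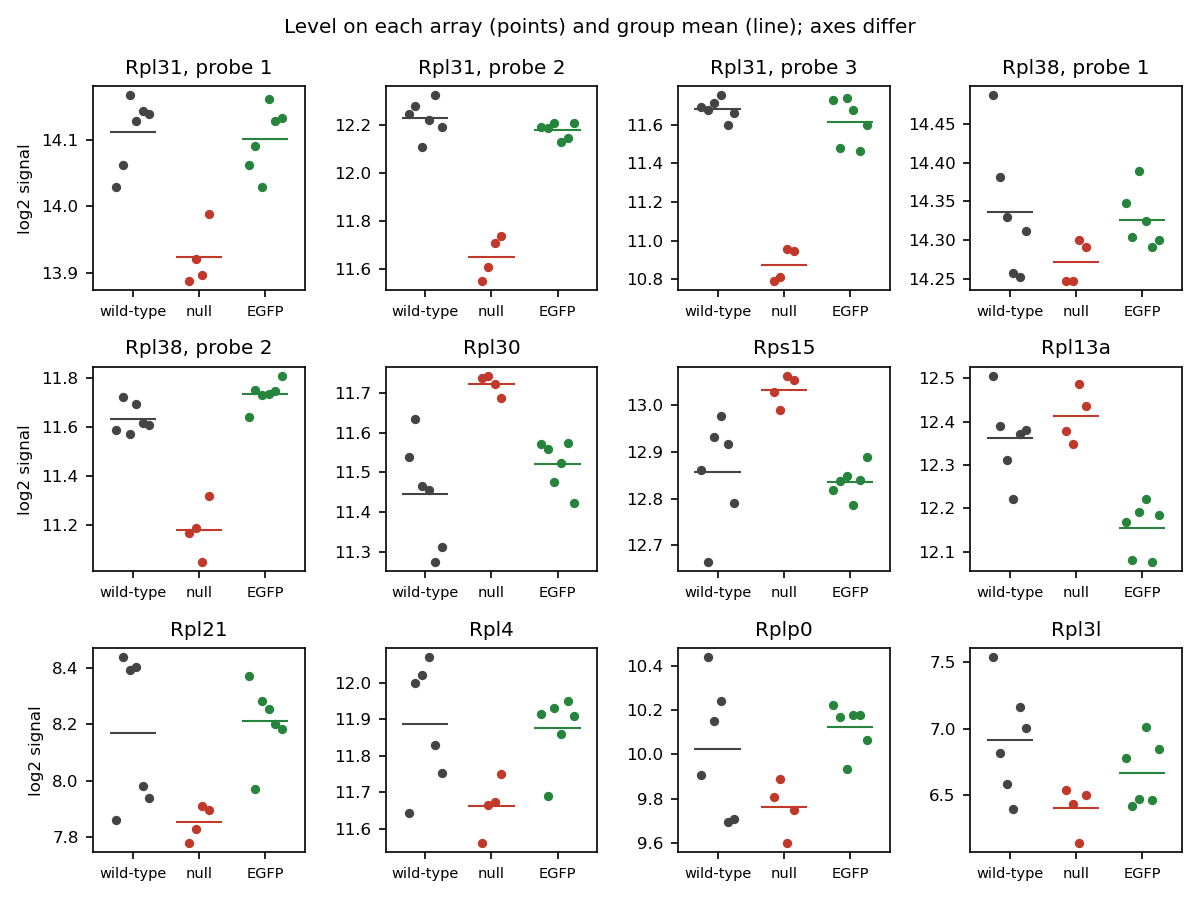
Level in log2 signal on each array (points) and group mean (lines) for 9 ribosomal protein genes, with the probes of Rpl31 and Rpl38 numbered from the brightest. Each panel has its own axis. Null arrays lie apart from wild-type for Rpl31, the second Rpl38 probe, Rpl30 and Rps15, while for Rpl21 and Rpl4 the wild-type arrays split into a high and a low set of 3.

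Among the paralogs, Rpl3l fell. It replaces Rpl3 in ribosomes of heart and skeletal muscle, and its signal in ESCs was low. Null arrays stood at 6.54, 6.43, 6.13 and 6.50 and wild-type arrays at 6.40 to 7.54 (median 6.91), with arrays 1, 5 and 6 the highest at 7.54, 7.16 and 7.0. The groups overlap, with a change of -0.51 (SE 0.18, adjusted p = 0.0278), and without those 3 arrays it was -0.20 and no longer called (adjusted p = 0.338). Its canonical partner Rpl3 differed by 0.01 (SE 0.06). Rpl22l1, which can replace Rpl22, differed by -0.49 (SE 0.19) and stood at the threshold (adjusted p = 0.0504), while Rpl22 differed by 0.02 (SE 0.12). The Rpl22l1 probe was dim, with detection on 5 of 6 wild-type and 3 of 4 null arrays. Its null levels of 5.44 to 5.86 lay within the wild-type range of 5.42 to 6.59.

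The remaining tested paralogs were brighter and were not called in null cells. Rps4l, a second gene of the Rps4x family, stood at 12.29, 12.29, 12.50 and 12.31 in null and at 12.33 to 12.53 in wild-type, a difference of -0.11 (SE 0.06, adjusted p = 0.168), beside 0.08 (SE 0.06) for Rps4x. Rps27l, a paralog that p53 induces, differed by 0.12 (SE 0.07), Rpl36al by 0.05 (SE 0.06) beside 0.00 (SE 0.07) for Rpl36a, and Rpl7l1 by -0.02 (SE 0.08). Rps19bp1 differed by 0.01 (SE 0.07).

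The answer for a gene could turn on which of its probes was read. Of the 77 tested member probes, 3 were higher in null cells against 21.2% of all 15356 tested probes, and 13 were lower against 20.4%. For 15 genes several probes were tested, and in 9 of these the brightest probe showed the smallest change. In 5 of them, Rpl23, Rpl27a, Rpl28, Rpl38 and Rps24, the brightest probe was not called while another was, a set picked out after its values were seen. Rpl38, which in mouse embryos is needed for translating a subset of Hox mRNAs, is the clearest case. Its bright probe stood at 14.25, 14.25, 14.30 and 14.29 in null and at 14.25 to 14.49 in wild-type, with a difference of -0.07 (SE 0.06, adjusted p = 0.399). Its dimmer probe stood at 11.17, 11.19, 11.05 and 11.32 in null and at 11.57 to 11.72 in wild-type, with no overlap and a change of -0.45 (SE 0.06, adjusted p = 1.45e-05).

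The other 4 genes split in the same manner. A dimmer probe fell for Rpl27a (-0.35, SE 0.08), Rpl28 (-0.33, SE 0.08) and Rps24 (-0.27, SE 0.10), and rose for Rpl23 (0.29, SE 0.07), while their brightest probes differed by -0.05, 0.06, 0.05 and -0.02. No gene had probes called in opposite directions. Which transcript or related sequence each probe reads is not given in the sources used here, and whether signals near the top of the scale are compressed was not tested.

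**Figure D4:**
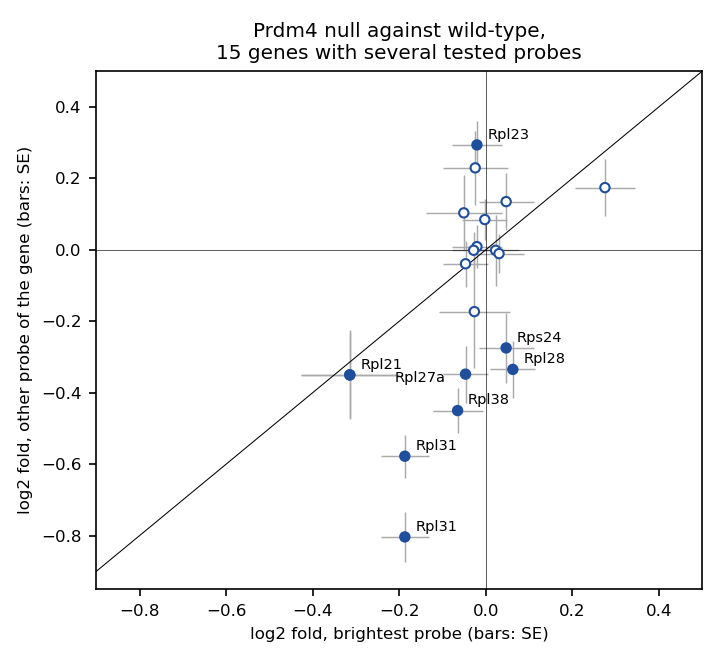
Log2 fold in null against wild-type of the brightest probe (horizontal) and of each other tested probe of the same gene (vertical), with SE bars, for 15 ribosomal protein genes. Filled points are other probes that were called, and most lie below the diagonal of equal folds, as for Rpl31 (-0.19 against -0.58 and -0.80) and Rpl38 (-0.07 against -0.45).

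Prdm4-EGFP cells were set against wild-type to ask what differs in cells that carry the transgene. None of the 57 members rose, against 1.9% of all tested genes, and 1 fell, against 2.19%. At an unadjusted p under 0.05 the count was also 1, against 19.2% of all tested genes. The interquartile range of the members' log2 folds was -0.04 to 0.02. The gene that fell was Rpl13a, a large subunit protein that, in human monocytes, leaves the ribosome to silence inflammatory mRNAs. Its Prdm4-EGFP arrays stood at 12.08 to 12.22 (median 12.18) and the wild-type arrays at 12.22 to 12.50 (median 12.38), and wild-type array 4 met the highest of them. The change was -0.21 (SE 0.06, adjusted p = 0.0444), and it was not called under 3 other scalings (-0.15 to -0.21) or when any one of these 12 arrays other than wild-type array 4 was left out. The null arrays, at 12.38, 12.35, 12.49 and 12.44, lay within the wild-type range.

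Both modified lines were also compared directly, a contrast that shares its arrays with the comparisons above. Of the 57 members, 5 were higher in Prdm4-EGFP than in null cells (Rpl21, Rpl31, Rpl4, Rplp0 and Rps15a), against 23.6% of all tested genes, and 3 were lower (Rpl13a, Rpl30 and Rps15), against 25.2%. Rplp0 stood at 9.93 to 10.22 on the Prdm4-EGFP arrays and below 9.93 on every null array, a difference of 0.36 (SE 0.12, adjusted p = 0.0232). Rpl13a was lower by 0.26 (SE 0.06, adjusted p = 0.00261), with no overlap. Under the other 3 scalings no member was lower, against 23.4, 23.1 and 18.8% of all tested genes.

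The direction of the family as a whole in null cells depends on how arrays are scaled. Under quantile normalization 32 of 57 members had a log2 fold above 0 and 24 below, with Rplp1 at 0. With arrays scaled on the median of all probes the members' median was -0.06 and 47 were below 0, with the median of all tested genes at 0.07. Scaled on the median of tested non-ribosomal probes it was -0.14 (55 below 0, all genes -0.01), with 11 members lower (19.3%), against 22.8% of all tested genes, and none higher, against 20.3%. In the deposited values, which carry the authors' rank-invariant normalization, it was -0.21 (56 below 0, all genes -0.06), with 25 lower and none higher, against 27.1 and 16.1% of all tested genes. Of the other genes in the brightest 10% of tested probes, 43.2% were lower in these values.

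Single arrays differed as much as the groups under these scalings. Scaled on non-ribosomal probes, the median member difference from the wild-type mean ran from -0.15 to 0.13 over the 6 wild-type arrays and from -0.25 to -0.04 over the 4 null arrays, so the groups overlap. On the Prdm4-EGFP arrays it ran from -0.24 to 0.01. Other genes in the brightest 10% of tested probes moved too, at -0.12 to -0.06 over the null arrays and -0.05 to 0.06 over the wild-type arrays. Member probes took 5.82 to 6.52% of the scanner signal of tested probes in wild-type, 5.69 to 6.19% in null and 5.62 to 6.11% in Prdm4-EGFP cells, which overlap. Amount of ribosomal protein mRNA per cell was not measured, and fewer cells of a type and less RNA per cell cannot be told apart in bulk RNA.

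**Figure D5:**
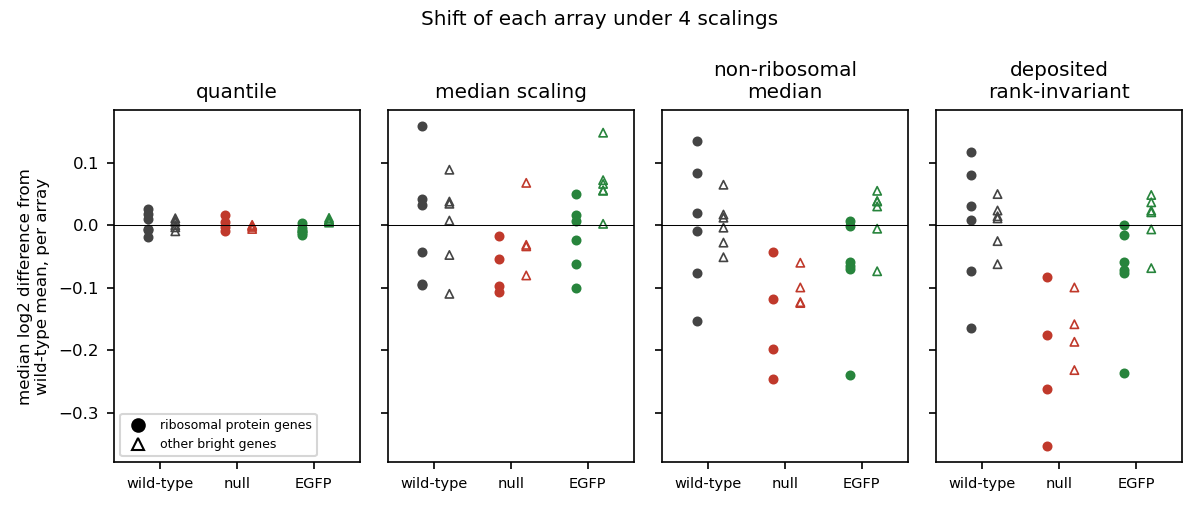
Median log2 difference from the wild-type mean over the 57 ribosomal protein genes (filled circles) and over 1002 other genes in the brightest 10% (open triangles), one point per array, under 4 scalings. Under quantile normalization all arrays lie between -0.02 and 0.03, while in the deposited values the members reach -0.35 on a null array and 0.12 on a wild-type array.

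Genes that build and drive the ribosome were counted over whole lists. The called genes named from a list were picked among those with the smallest p-values, so they do not stand for the list. Of 50 tested genes for ribosome biogenesis 12 rose (24%) and 6 fell (12%) in null cells, against 22.9 and 21.2% of all tested genes. Nat10, an RNA acetyltransferase (0.49, SE 0.07), and Polr1b, the second subunit of RNA polymerase I (0.54, SE 0.08), rose. Ncl, nucleolin (-0.40, SE 0.06), and Imp4, a small subunit processome protein (-0.28, SE 0.06), fell, and both lie on chromosome 1. The list of initiation and elongation factors also held Pabpc1, Tpt1, Naca and Btf3. Of its 29 tested genes 4 rose (13.8%) and 1 fell (3.45%), both below those shares. Eif5 (0.32, SE 0.08) and Eif4b (0.27, SE 0.08) were among those that rose, and Eef1b2 (-0.23, SE 0.06), also on chromosome 1, fell. The split of these 2 lists depends on the scaling. In the deposited values 4 biogenesis genes rose and 11 fell. Of the second list 0 rose and 10 fell there, with Eif5 (0.14) and Eif4b (0.19) not called. Nat10, Polr1b, Ncl, Imp4 and Eef1b2 kept their calls under all 4 scalings.

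Of 18 regulators of TOP mRNAs and ribosome production 5 rose (27.8%) and 1 fell (5.56%) in null cells, against the same 22.9 and 21.2%, and in the deposited values 3 rose and 2 fell. Mdm2, the p53 ligase that several ribosomal proteins bind, rose by 0.79 (SE 0.11), Tsc1, which restrains mTOR, by 0.53 (SE 0.10) and Rictor, of mTOR complex 2, by 0.49 (SE 0.08). These 3 were called under all 4 scalings. Larp1 differed by 0.12 (SE 0.12) and Mtor by 0.19 (SE 0.09), neither called. In Prdm4-EGFP cells limma called 0 of the 97 genes on these 3 lists against wild-type, with 9 (9.28%) at an unadjusted p under 0.05, against 19.2% of all tested genes.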

How the data were processed

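Per the file headers, the deposited table held a linear signal intensity and a detection p-value per probe and array, neither normalized nor background-corrected by the authors. A second deposited table held intensity after the authors' rank-invariant normalization. The software version and array build are not given in the sources used here. Intensities were taken through limma 3.58.1 (R 4.3.3): neqc (normexp with background from the detection p-values, offset 16, quantile normalization, log2), then lmFit and eBayes on 16 arrays with 3 group means. The methods' scanner-software error model was not rerun. Probes were named by the platform table, updated through RefSeq gene IDs. The number of arrays limits precision. Named members were the called genes, the paralogs with their partners, the stalk proteins and those on chromosome 1, and up to 4 called genes of each list. Members and lists were chosen with earlier results of these data known. The lists also held ribosome parts outside the name rule (3 genes, none named on the array), primitive endoderm markers (5 of 8 detected on no array) and trophoblast markers (6 to 7 of 8 on none, depending on the group). The fit was tested on simulated data. Python 3.11.15 and matplotlib 3.10.9 drew the figures.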

Additional observations from a re-analysis of the deposited data

Results flagged for a closer look

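Levels on single arrays were compared with the others of their group for 39 tested probes of 25 members, as was the members' share of the scanner signal. Of 120 such sets of arrays 4 held one array that stood far from the rest, where chance alone marks about 1 in 20. Rpl22 reached 10.94 on Prdm4-EGFP array 3, above 10.49 to 10.65 on the other 5. Rpl4 stood at 11.69 on Prdm4-EGFP array 2, below 11.86 to 11.95. Rps4l stood at 12.50 on null array 3, above 12.29 to 12.31. Rplp1 stood at 14.66 on Prdm4-EGFP array 1, the array on which it ranked second, and at 14.79 on all others, a value that normalization assigns to the top rank.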

How the results depend on the processing

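In null cells the count of called members, 7 as reported, was 4 with median scaling, 11 with scaling on non-ribosomal probes, 25 in the deposited values, 3 with no filter on dim probes and 3 with only the 2 groups compared. It was 1 with arrays numbered 1 and 2 only and 1 with those numbered 3 and above. Under these scalings the members' median was -0.0611, -0.143 and -0.211, within the 2 sets of array numbers -0.0181 and 0.0198, and without wild-type arrays 1, 5 and 6 (an alternative chosen after seeing the data) 0.0213. Rps15 reversed to -0.012 in the deposited values.

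For Prdm4-EGFP against wild-type the count went from 1 to 0 with median scaling, with scaling on non-ribosomal probes, in the deposited values, with only the 2 groups compared, within either set of array numbers and without wild-type arrays 1, 5 and 6. The median, -0.01 as reported, was -0.0691 with scaling on non-ribosomal probes, -0.0697 in the deposited values, and -0.0197 and 0.007 within the sets. Against null cells the count of 8 became 5 under both linear scalings and 1 and 2 within the sets, and the median of -0.03 became 0.0407, 0.0702 and 0.132 under the scalings and -0.0071 within the first set.

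With single arrays left out, 2 to 7 members were called in null cells against wild-type (2 without null array 3), 0 to 1 in Prdm4-EGFP cells and 5 to 8 between the modified lines, with medians of 0 to 0.0147, -0.0156 to -5e-04 and -0.0354 to -0.0157. With the replicate number as a block the counts were 7, 0 and 6: in null cells Rpl4 was no longer called (-0.23, adjusted p = 0.0529) and Rplp0 was (-0.34, adjusted p = 0.0308), Rpl13a lost its call in Prdm4-EGFP cells, and Rpl30 and Rpl4 lost theirs between the modified lines. Of 14 pairs of arrays that share a number, 7 correlated above 0.1 (mean 0.10, from -0.06 to 0.26). The 70 pairs between groups with different numbers had a mean of -0.02. Of 16 arrays, 5 correlated best with an array of their own number in another group, so the numbers do not settle a pairing.

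The array numbers limit small changes most: the SE of a bright member was near 0.06. Dim probes (Rps15a, Rpl3l, Rpl22l1) lie close to background, and the brightest leave little room above them.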
